A study of Bos taurus with 16 samples.

Results

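The 35 genes described here encode the antioxidant and glutathione enzymes of the liver, with their transcription factor NFE2L2 and its sensor KEAP1. They were chosen by name, as the rows of the count table whose symbol was one of the 35, and all 35 were found among 28786 gene names. Each of the 35 passed the filter on low counts, a value above 4 in 1 or more of the 12 tested libraries, and so did 19824 genes in all. Precision-cut liver slices, thin sections of living liver kept in culture, had been prepared from biopsies of Jersey cows in their first lactation, taken early after calving. Slices were incubated for 18 h and RNA was measured by QuantSeq, which sequences the 3′ end of each transcript. Each cow and treatment gave 1 library.

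The groups were 100 µM WY-14643 (a PPARα agonist), 50 µM GW-501516 (a PPARδ agonist), 100 µM rosiglitazone (a PPARγ agonist) and a control labelled as untreated. PPARs are nuclear receptors that bind fatty acids, and the comparison asked which transcripts respond when each of the 3 receptor types is activated. The protocol states 0.8% DMSO in all treatments. In the triacylglycerol assay of the same study the control slices are described as held in plain medium. For RT-qPCR the study names its control after the medium and calls it untreated. Whether the control slices sequenced here held DMSO is not stated. If they lacked DMSO as well, agonist and vehicle cannot be told apart. Libraries of 3 cows, numbered 581, 576 and 567, made up groups of 3. The study removed an animal, whose number it does not give, for low RNA integrity and for standing apart in a principal component analysis. Cow 574 was taken to be that animal, which is an inference: its 4 libraries had 79.6 to 84.3% of reads outside annotated genes, against 29.1 to 54.1% in the other 12, and they enter only where named.

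Cells meet reactive oxygen through several connected systems. Superoxide dismutases turn superoxide into hydrogen peroxide, which glutathione peroxidases and peroxiredoxins reduce with electrons from glutathione and thioredoxin, and NADPH, in part from the pentose phosphate pathway, recharges both. When oxidants or electrophiles modify KEAP1, NRF2 (the protein of NFE2L2) escapes degradation and induces many of these genes, among them NQO1, HMOX1, GCLC, GCLM, TXNRD1 and SRXN1. Heme oxygenases release iron from heme, which ferritin stores, and hepatocytes and liver macrophages both take part in this.

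The 12 libraries held 3081981 to 10227330 counts in genes. Libraries WY-14643 of cows 581 and 567 and GW-501516 of cow 581 carry the letters "rd" in their labels, the meaning of which is not given, and are called marked below. The 18S ribosomal gene RN18S1 took 11.9 to 16.4% of counts in the 3 marked libraries and 33.1 to 63.8% in the 9 unmarked ones. The highest share was that of GW-501516 in cow 576, where the 35 genes took 0.302% of counts, against 1.25 to 1.50% in the marked libraries and 0.302 to 1.45% over the 9 unmarked ones. Hepatocyte markers (10 genes) summed to 9169, 1899 and 10647 CPM with WY-14643, 4929.6, 5682 and 4047 with GW-501516 and 6128, 7772 and 4632 with rosiglitazone, against 3243, 2242 and 5736 in control, so the labelled tissue showed its defining transcripts in each library. CPM are counts per 1000000 after TMM scaling, and 3 values in a row follow the order of cows 581, 576 and 567. In such bulk RNA, fewer cells of a type and less RNA per cell cannot be told apart.

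In control slices the ferritin genes led, followed by HMOX1, on the CPM scale, which for 3′ counts is not divided by length. FTH1, the ferritin heavy chain, averaged 2843 ± 468 CPM and FTL, the light chain, 2303 ± 396 CPM (SD, n = 3). HMOX1, the inducible heme oxygenase, averaged 897 ± 457 CPM. A further 11 genes had control means from 100 to under 1000 CPM, 17 from 10 to under 100 CPM and 4 under 10 CPM, with SOD3, the extracellular superoxide dismutase, lowest at 1.34 ± 0.724 CPM. The SDs of HMOX1 and of PRDX1 (643 ± 231 CPM), the next gene in order, overlapped.

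Few of the 35 genes passed the test against control, and lower HMOX1 was the call that both WY-14643 and rosiglitazone gave. Called means an adjusted p under 0.2, the threshold of the study, in edgeR's quasi-likelihood test with treatment as the only term. WY-14643 gave 2 calls of 35, SOD2 higher and HMOX1 lower, where 0.535% of all genes were called. Rosiglitazone gave 2 calls, HMOX1 and PRDX1, both lower, where 0.631% were called. GW-501516 gave 0 calls with edgeR, where 0.308% of all genes were called, with 7 of the 35 at an unadjusted p under 0.05 (7.82% of all genes), and DESeq2 also called 0. The unadjusted count was 9 with WY-14643 (7.88% of all genes) and 9 with rosiglitazone (6.79%). The mean of the 3 agonists against control called HMOX1 alone, where 0.651% of all genes were called. The median log2 fold change of the 35 was 0.48 with WY-14643, −0.01 with GW-501516 and −0.21 with rosiglitazone, against 0.12, 0.00 and 0.08 over all genes. The 3 comparisons share their control libraries.

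Since slices of a cow share 1 biopsy, the fit was repeated with the cow as a term, called the replicate block. It called 7 of the 35 with WY-14643 (2.68% of all genes), 2 with GW-501516 (2.03%) and 8 with rosiglitazone (2.86%), and 4 for the mean of the agonists (3.26%). The gains with WY-14643 were TKT, HMOX2, FTH1, MGST1 and TXN, all higher. With rosiglitazone they were TKT, GCLC and HMOX2, which were higher, and FTH1, GSTP1 and TALDO1, which were lower. DESeq2 without the block called 2 of the 35 with WY-14643 (1.61% of all genes), 0 with GW-501516 (2.64%) and 4 with rosiglitazone (1.87%), where TALDO1 and PRDX2 joined HMOX1 and PRDX1. A stricter filter on low counts, edgeR's filterByExpr, left 14374 genes without the block and called none of the 35 with WY-14643 (0.00% of those genes) or rosiglitazone (0.0626%). With the block that filter left 15533 genes, and HMOX1 (adjusted p = 0.172) and PRDX1 (0.0651) were called with rosiglitazone (1.09% of those genes) and none with WY-14643 (0.161%).

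The direction in the single cows gave larger counts. Relative to its own control library, 13 of 35 genes were higher in all 3 cows with WY-14643 (18.4% of all genes) and 2 lower (10.4%). With GW-501516 4 were higher (9.33%) and 8 lower (10.3%), and with rosiglitazone 8 were higher (15.8%) and 15 lower (11.6%). The count of 4 is close to its background share. The CPM of the groups did not overlap for 6 genes above control with WY-14643 (TXN, PRDX4, PRDX5, SOD2, MGST2 and FTH1, against 9.33% of all genes) and 1 below (HMOX1, 4.73%). With GW-501516 HMOX2 lay above control without overlap (4.59% of all genes), and HMOX1 and GSTM1 below (4.77%). With rosiglitazone 5 genes lay above (KEAP1, HMOX2, GCLC, GPX4 and TKT, 8.70%) and 11 below (NFE2L2, HMOX1, PRDX1, PRDX2, SOD1, PGD, TALDO1, GSTM1, GSTP1, FTH1 and FTL, 6.01%). The rosiglitazone group, which held no marked library, thus had the most genes below control.

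**Figure D1:**
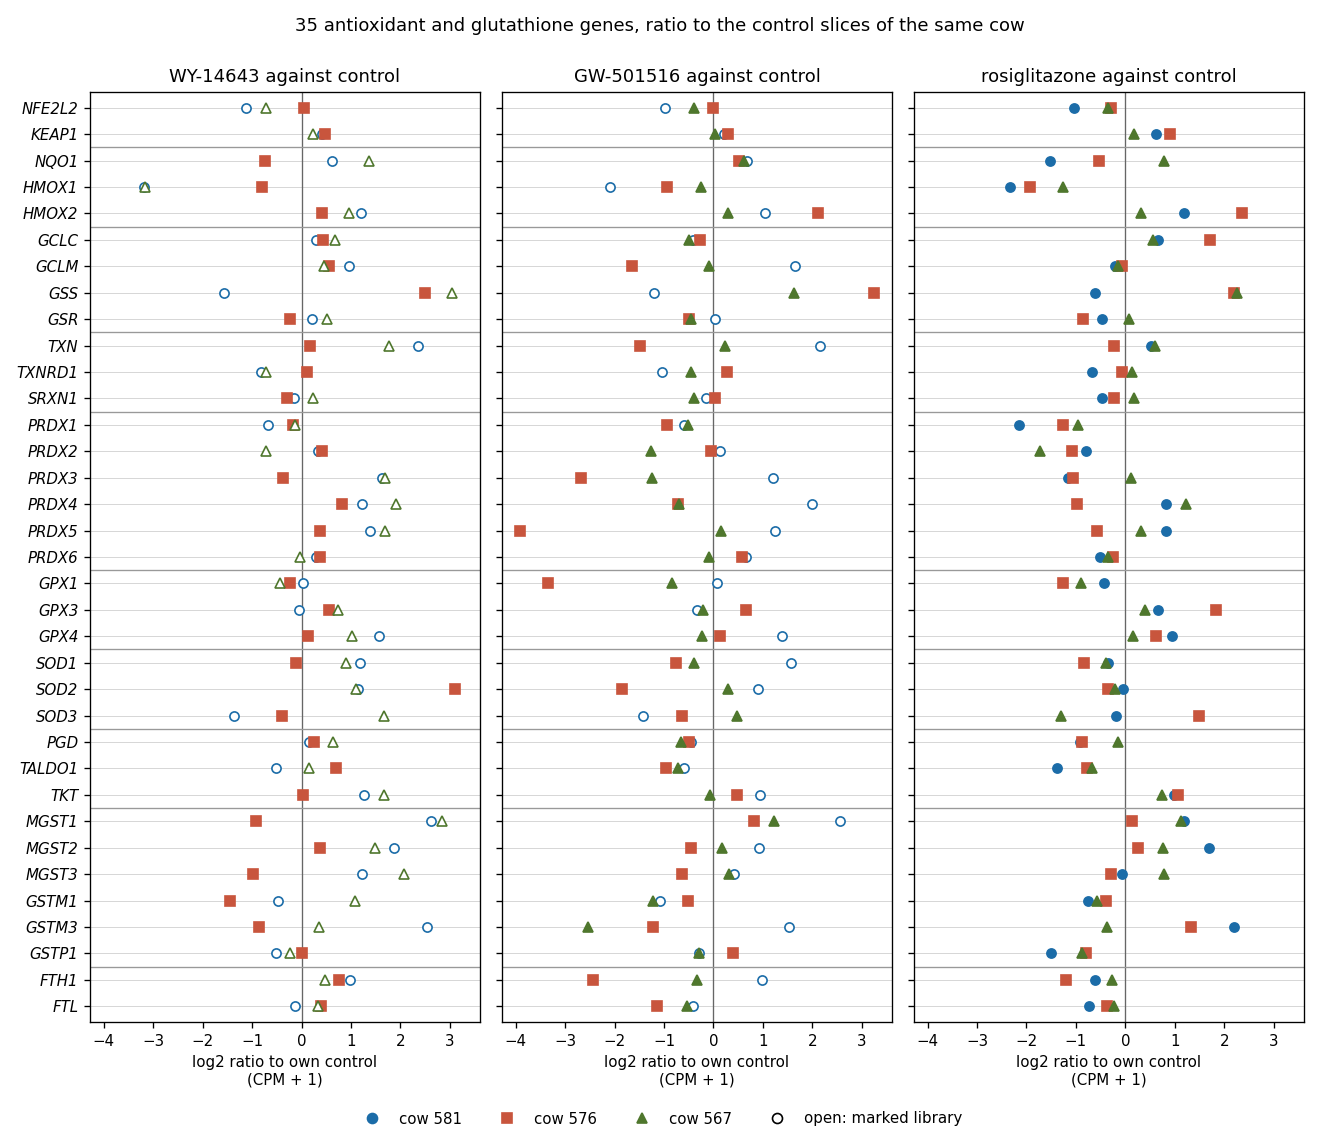
Log2 ratio of CPM + 1 in each agonist library to the control library of the same cow, for the 35 genes, with panels for WY-14643, GW-501516 and rosiglitazone. Symbols give the cow and open symbols the 3 marked libraries. HMOX1 lies left of 0 in all 9 libraries, between −3.20 and −0.25.

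The sensor and its transcription factor did not pass the test with any agonist. NFE2L2 had 125, 189 and 105 CPM with WY-14643, 139.6, 183 and 131 with GW-501516 and 134, 149 and 134 with rosiglitazone, against 275, 184 and 173 in control. The 3 rosiglitazone libraries lay below the 3 of control, while with WY-14643 and GW-501516 the library of cow 576 reached the control range. The log2 fold changes were −0.59 ± 0.36 with WY-14643, −0.48 ± 0.36 with GW-501516 and −0.60 ± 0.36 with rosiglitazone (SE), with adjusted p of 0.666, 0.690 and 0.744. KEAP1 had 211, 194 and 268 CPM with WY-14643, 183, 170.3 and 233 with GW-501516 and 245, 261 and 259 with rosiglitazone, against 159, 138 and 227 in control. Each of its 9 agonist libraries exceeded the control of the same cow, and the rosiglitazone libraries did not overlap control. The log2 fold changes of KEAP1, 0.36, 0.16 and 0.54 in the same order, had an SE of 0.34 to 0.35 and adjusted p of 0.744 to 0.950.

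HMOX1 carried the clearest change. It had 153, 433 and 58.1 CPM with WY-14643, 329, 391 and 447 with GW-501516 and 279, 198 and 219 with rosiglitazone, against 1409.6, 753 and 529.8 in control. All 9 agonist libraries lay below all 3 control libraries, and the control of cow 581 stood highest. HMOX1 fell by 2.07 ± 0.44 on the log2 scale with WY-14643 (adjusted p = 0.0484) and by 1.95 ± 0.44 with rosiglitazone (0.0501). With GW-501516 the log2 fold change was −1.21 ± 0.43 (0.477), and it was called with the replicate block (−1.09 ± 0.31, 0.0432). For the mean of the 3 agonists HMOX1 fell by 1.74 ± 0.32 (0.00721).

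The control library of cow 581 decided these calls without the block. When it was left out, HMOX1 had −1.59 with WY-14643 (adjusted p = 0.612), −1.43 with rosiglitazone (0.672) and −1.24 for the mean (0.601). With the replicate block, the calls for WY-14643, rosiglitazone and the mean stayed in all 12 fits that left out 1 library. That for GW-501516 was lost without the control of cow 581 (−0.60), GW-501516 of cow 581 (−0.81) or GW-501516 of cow 576 (−0.90). Without the 3 marked libraries, 1 WY-14643 library was left, taken to vary like the other groups, and the HMOX1 value there was −1.00 ± 0.42 (adjusted p = 1), or −0.65 ± 0.38 with the block. That of rosiglitazone was −1.96 ± 0.29 (1.8e-08) and that of GW-501516 −1.11 ± 0.32 (0.0749).

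Summed macrophage markers lay below the control of the same cow in each agonist library except WY-14643 of cow 576. The 10 markers summed to 437, 355 and 266 CPM with WY-14643, 289, 47.2 and 172 with GW-501516 and 105, 195 and 188 with rosiglitazone, against 962, 351 and 442 in control. Their log2 fold changes were below 0 for 8 of 10 with WY-14643, 10 of 10 with GW-501516 and 10 of 10 with rosiglitazone, and 1, 2 and 1 of them fell by the test. In WY-14643 of cow 576 the markers summed to 355 CPM, against 351 in its control, with HMOX1 at 433, against 753. In GW-501516 of cow 567 the markers summed to 172 CPM, against 442, with HMOX1 at 447, against 529.8. In GW-501516 of cow 576 the 10 markers summed to 47.2 CPM, against 351, with HMOX1 at 391, against 753. RN18S1 took 63.8% of counts in that library, and 9993 genes had counts, the fewest of the 12 libraries. The control of cow 581 had the highest marker sum (962 CPM) and the highest HMOX1 (1409.6 CPM). The part of macrophages in the HMOX1 result was not tested.

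Markers of endothelial cells, of stellate cells and fibroblasts and of T cells were also low with rosiglitazone. The 8 endothelial markers summed to 173, 243 and 242 CPM with rosiglitazone, against 674, 625 and 441 in control, and 8 of 8 had a log2 fold change below 0 (median −1.36). The 7 tested markers of stellate cells and fibroblasts summed to 125, 219 and 127 CPM with rosiglitazone, against 337, 1215 and 415 in control, with 7 of 7 below 0 (median −1.62). Both sums, like that of the macrophage markers, did not overlap between the groups, and edgeR called 1 stellate and fibroblast marker lower. The 6 tested T cell markers summed to 4.59, 9.52 and 14.1 CPM with rosiglitazone, against 60.1, 13.1 and 51.9 in control, with 6 of 6 below 0 (median −1.76) and the groups overlapping. The medians there were 0.88 for hepatocyte, 0.51 for cholangiocyte, 0.29 for erythroid, −0.26 for neutrophil and −1.19 for B and plasma cell markers. The part of these cell types in the 5 genes that lay above control with rosiglitazone, and in the 11 that lay below, was not tested.

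**Figure D2:**
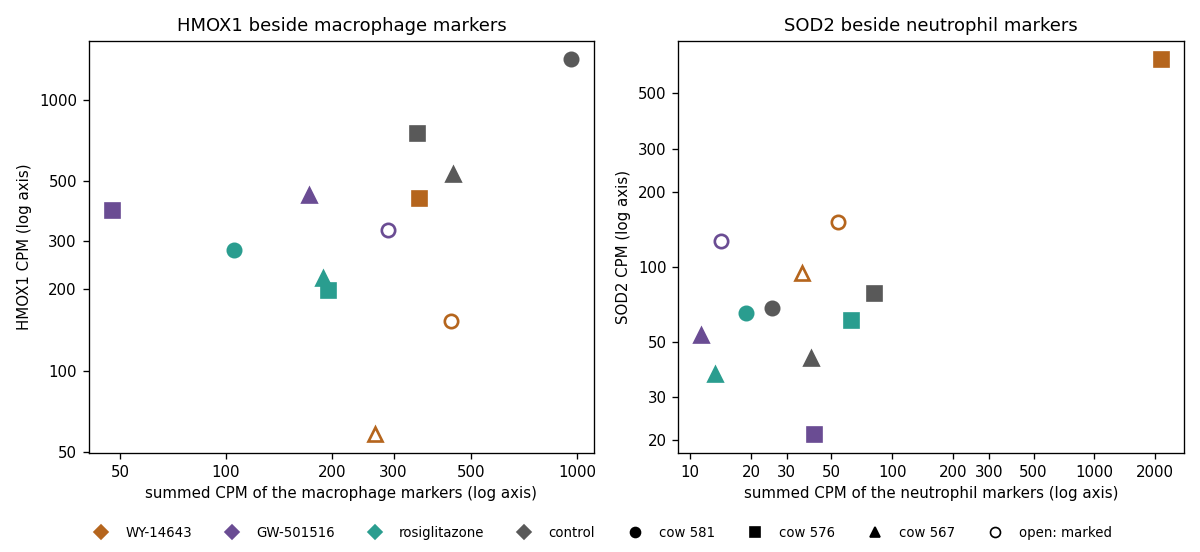
HMOX1 against the summed CPM of 10 macrophage markers, and SOD2 against that of the neutrophil markers, in 12 libraries on log axes, with colour for the group. The control library of cow 581 has the highest HMOX1 and macrophage values (962 CPM), and WY-14643 of cow 576 the highest SOD2 and neutrophil values (2131 CPM).

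HMOX2, the constitutive heme oxygenase, stood on the other side. It had 383, 110.4 and 449.9 CPM with WY-14643, 345, 361 and 284 with GW-501516 and 381, 426 and 289 with rosiglitazone, against 167, 82.0 and 232 in control. Each agonist library exceeded the control of the same cow, and the GW-501516 and rosiglitazone groups did not overlap control. Its log2 fold changes of 0.97, 1.04 and 1.19 with WY-14643, GW-501516 and rosiglitazone (SE 0.40 each) were not called, with adjusted p of 0.555, 0.527 and 0.406. With the replicate block HMOX2 rose by 0.94 ± 0.32 (0.146), 1.16 ± 0.32 (0.0377) and 1.32 ± 0.32 (0.00579) in the same order. The block call for rosiglitazone was lost without the control of cow 576 (1.02) or rosiglitazone of cow 576 (0.86). It was also lost without the whole of cow 581 (1.41, adjusted p = 0.241) or 576 (0.78, 0.211). The block call for GW-501516 was lost without the control of cow 581 (1.16, adjusted p = 0.328), the control of cow 576 (0.85) or GW-501516 of cow 576 (0.78). Leaving out the whole of cow 581 (1.23) or 576 (0.66) lost that call too. The block call for WY-14643 held in 6 of 12 fits that left out 1 library. It was lost without a control (cow 581 or 576), WY-14643 (581 or 567) or rosiglitazone (581 or 567) library, with values of 0.57 to 0.89. Without the marked libraries the WY-14643 value turned to −0.49, and to −0.33 with the block. The hepatocyte marker sums given above exceeded the control of the same cow in most agonist libraries. The exceptions were WY-14643 of cow 576 and GW-501516 and rosiglitazone of cow 567. WY-14643 of cow 567 had both the highest sum (10647 CPM) and the highest HMOX2 (449.9 CPM). The part of hepatocytes in the HMOX2 result was not tested.

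**Figure D3:**
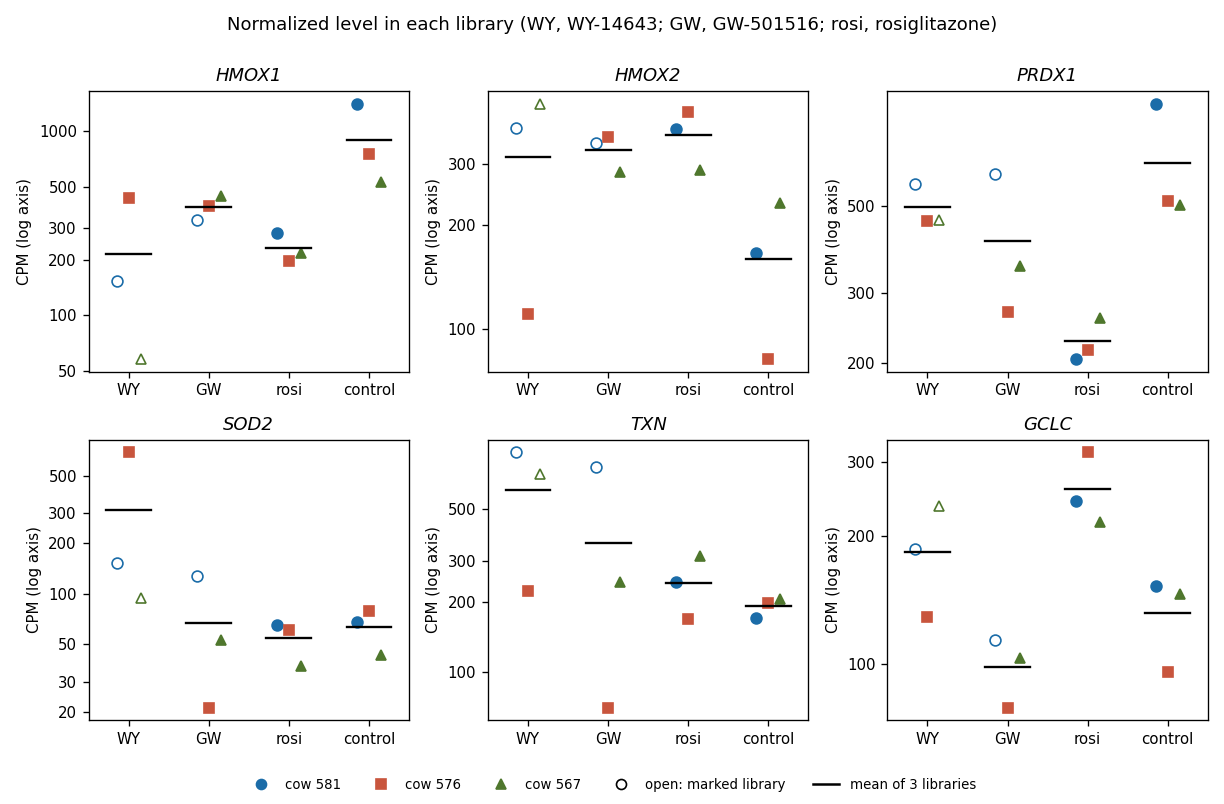
CPM on log axes of HMOX1, HMOX2, PRDX1, SOD2, TXN and GCLC in each of 12 libraries, with WY-14643, GW-501516, rosiglitazone and control from left to right. Symbols give the cow, open symbols the marked libraries and black bars the mean of 3. All 9 agonist values of HMOX1 lie below the lowest control value of 529.8 CPM.

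NQO1, a quinone reductase used as a readout of NRF2, showed no called change. It had 31.1, 33.4 and 37.6 CPM with WY-14643, 32.4, 81.2 and 21.9 with GW-501516 and 6.22, 38.6 and 24.8 with rosiglitazone, against 19.9, 56.1 and 13.9 in control, and the libraries of cow 576 were the highest in 3 of the 4 groups. The log2 fold changes were 0.18, 0.58 and −0.37 with WY-14643, GW-501516 and rosiglitazone (SE 0.59, adjusted p 0.787 to 0.979).

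Among the genes of glutathione synthesis, GCLC, the catalytic subunit of the rate-limiting ligase, was the one that moved. It had 187, 129 and 235 CPM with WY-14643, 114, 78.9 and 103 with GW-501516 and 242, 316 and 216 with rosiglitazone, against 153, 95.4 and 147 in control. The rosiglitazone libraries lay above control in each cow without overlap, and the GW-501516 libraries below their own control in each cow. With rosiglitazone the log2 fold change was 0.97 ± 0.37 (adjusted p = 0.528), and with the replicate block GCLC rose by 1.03 ± 0.34 (0.122). That call held in 7 of 12 fits and was lost without control 581 (1.14), rosiglitazone 581 (1.16), control 576 (0.88), rosiglitazone 576 (0.63) or control 567 (1.07). It was lost whichever whole cow was left out (0.65 to 1.23, adjusted p 0.412 to 0.571). It stayed without the marked libraries, at 0.98 (0.0405 with the block). Rosiglitazone and GW-501516 differed by 1.39 ± 0.37 (0.394), called with the block (1.43, 0.0163), at unequal doses.

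GCLM, the modifier subunit of the same enzyme, had 19.5, 12.8 and 20.3 CPM with WY-14643, 32.1, 1.98 and 13.4 with GW-501516 and 8.11, 7.91 and 12.9 with rosiglitazone, against 9.55, 8.37 and 14.4 in control, and no log2 fold change exceeded its SE of 0.77 to 0.78. Its 3 marked libraries were its 3 highest. GSR, glutathione reductase, ranged from 32.3 to 93.3 CPM over the 12 libraries, with log2 fold changes of −0.36 to 0.21. GSS, glutathione synthetase, lay at 0 to 13.9 CPM, too low to compare at this depth (SE 1.31 to 1.32).

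In the thioredoxin system TXN, which reduces protein disulfides, was high in the marked libraries. It had 877, 222 and 709 CPM with WY-14643, 759, 70.0 and 243 with GW-501516 and 242, 168 and 313 with rosiglitazone, against 169.9, 198 and 206 in control. The 3 values above 700 CPM were those of the marked libraries, and the other 9 ran from 70.0 to 313 CPM. With WY-14643 the log2 fold change was 1.66 ± 0.49 (adjusted p = 0.227), and with the replicate block TXN rose by 1.32 ± 0.32 (0.00596). The block call was lost without control 581 (0.83), control 567 (1.17) or WY-14643 567 (1.12), and without the marked libraries the value was 0.65 ± 0.40 (adjusted p = 1). TXNRD1, thioredoxin reductase, had 374, 472 and 297 CPM with WY-14643, 323, 532 and 360.4 with GW-501516 and 418, 418 and 539.7 with rosiglitazone, against 663, 436 and 493 in control, and SRXN1, sulfiredoxin, which repairs overoxidized peroxiredoxins, had 494, 316 and 485 CPM with WY-14643, 499, 399 and 316 with GW-501516 and 397, 330.1 and 469 with rosiglitazone, against 549.8, 389 and 413 in control. In both genes each agonist group overlapped control, and the log2 fold changes of −0.48 to −0.06 (SE 0.33) were not called.

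Of the 6 peroxiredoxins, which reduce peroxides, PRDX1 fell with rosiglitazone. PRDX1 had 570.2, 458 and 459.9 CPM with WY-14643, 602, 269 and 352 with GW-501516 and 204, 216 and 259.9 with rosiglitazone, against 910.3, 516 and 503 in control. The 3 rosiglitazone values lay below all other 9, and each agonist library lay below the control of its cow. PRDX1 fell by 1.50 ± 0.35 on the log2 scale with rosiglitazone (adjusted p = 0.0569), against −0.66 ± 0.35 with GW-501516 (0.651) and −0.37 ± 0.34 with WY-14643 (0.764). The call was lost without control 581 (−1.14, 0.588) or rosiglitazone 581 (−1.42, 0.333), and with the block it held in all 12 such fits but was lost when the whole of cow 581 was left out (−1.11, 0.563). With the marked libraries left out it was −1.51 (8.59e-05). The control of cow 581, the highest for PRDX1, was also the highest for the macrophage (962 CPM) and endothelial (674 CPM) markers, which were low with rosiglitazone, and their part in the PRDX1 result was not tested.

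PRDX2, a second cytosolic peroxiredoxin, had 49.5, 58.7 and 29.7 CPM with WY-14643, 42.8, 42.6 and 20.0 with GW-501516 and 22.2, 20.3 and 14.3 with rosiglitazone, against 39.0, 43.8 and 49.7 in control. Its rosiglitazone libraries lay below control without overlap, at −1.22 ± 0.50 (adjusted p = 0.616), and DESeq2 called it. PRDX3 of mitochondria, PRDX4 of the endoplasmic reticulum and PRDX5 had the opposite lean with WY-14643. PRDX3 had 45.4, 10.49 and 33.8 CPM with WY-14643, against 13.9, 14.0 and 9.79 in control. PRDX4 had 17.2, 25.0 and 29.6 CPM with WY-14643, against 6.76, 13.7 and 7.10 in control, and PRDX5 had 69.7, 57.6 and 90.2 CPM with WY-14643, against 25.9, 44.1 and 27.4 in control. These log2 fold changes of 1.25 ± 0.80, 1.38 ± 0.75 and 1.16 ± 0.58 were not called (adjusted p 0.634 to 0.680). GW-501516 of cow 581, also marked, had 33.6, 30.1 and 62.3 CPM of PRDX3, PRDX4 and PRDX5. All marked libraries exceeded all unmarked ones in PRDX3 and PRDX5, while in PRDX4 they overlapped. Agonist and mark cannot be told apart here. PRDX6 ranged from 30.96 to 80.5 CPM over the 12 libraries and was called with no agonist.

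SOD2, the mitochondrial superoxide dismutase, was the gene that rose with WY-14643. It had 152, 686 and 94.3 CPM with WY-14643, 128, 21.1 and 52.9 with GW-501516 and 65.4, 61.1 and 37.2 with rosiglitazone, against 68.0, 78.4 and 43.1 in control. WY-14643 of cow 576 stood far above the other 11 libraries, and the remaining pair of WY-14643 libraries, both marked, also exceeded all 3 control libraries. SOD2 rose by 2.30 ± 0.54 on the log2 scale (adjusted p = 0.0838), with 0.10 ± 0.52 for GW-501516 and −0.21 ± 0.52 for rosiglitazone. The call was lost without WY-14643 576 (0.96, 0.407), control 581 (2.35, 0.591), control 576 (2.46, 0.245) or control 567 (2.08, 0.275). With the block it was lost only without WY-14643 576 (0.86 ± 0.38, 0.451), though leaving out the whole of cow 576 kept it (1.14 ± 0.37, 0.0290). With the marked libraries left out, where WY-14643 576 was the lone library of its group, it was 3.49 ± 0.43.

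Markers of neutrophils and of stellate cells and fibroblasts were highest in the library with the highest SOD2. The 5 of 7 that were tested summed to 53.9, 2131 and 35.8 CPM with WY-14643, 14.2, 40.9 and 11.3 with GW-501516 and 18.9, 62.3 and 13.3 with rosiglitazone, against 25.5, 80.9 and 39.6 in control. In WY-14643 of cow 576 S100A12 was at 1005 CPM, S100A8 at 582 and S100A9 at 312, and 4 of the 5 were called higher with WY-14643. The same library had the highest sum of the 7 stellate and fibroblast markers, at 2772 CPM, against 287 and 298 with WY-14643 in cows 581 and 567 and 1215 in control of cow 576, the next highest. Its 4 tested erythroid markers summed to 109 CPM, against 86.8 in control of cow 576. The part of these cell types in the SOD2 result was not tested. In the marked WY-14643 libraries, where the neutrophil marker sums were 53.9 and 35.8 CPM, SOD2 exceeded its own control by 1.15 and 1.11 on the log2 scale, against 3.11 in cow 576.

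SOD1, the cytosolic enzyme, had 217, 70.8 and 169 CPM with WY-14643, 284, 44.9 and 68.6 with GW-501516 and 75.1, 42.4 and 68.4 with rosiglitazone, against 95.5, 76.2 and 89.8 in control. Its 3 marked libraries were the 3 highest of 12, and the rosiglitazone libraries lay below control. No comparison with control was called (log2 fold changes 0.81, 0.61 and −0.49, SE 0.48 each), and the pair of rosiglitazone and WY-14643 differed with the block (−1.19, adjusted p = 0.121). SOD3 was at 0 to 6.87 CPM, below what could be compared at this depth.

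The glutathione peroxidases were not called against control. GPX1, the cytosolic peroxidase, had 56.4, 139 and 44.4 CPM with WY-14643, 58.0, 15.2 and 33.2 with GW-501516 and 40.5, 67.1 and 31.9 with rosiglitazone, against 54.9, 163 and 60.2 in control. The GW-501516 library of cow 576 was the lowest of the 12, and the log2 fold change with GW-501516 was −1.38 ± 0.51 (adjusted p = 0.482). GPX4, which reduces lipid hydroperoxides, had 152, 94.8 and 199 CPM with WY-14643 and 99.2, 134 and 109 with rosiglitazone, against 50.9, 86.8 and 97.2 in control, at 0.92 ± 0.39 (0.581) and 0.54 ± 0.39 (0.754). GPX3, the secreted plasma form, had 42.4, 65.6 and 21.4 CPM with WY-14643, 34.4, 70.6 and 10.6 with GW-501516 and 69.5, 161 and 16.7 with rosiglitazone, against 43.8, 44.4 and 12.5 in control. Its rosiglitazone libraries each exceeded their own control (1.30 ± 0.61, 0.713), and the libraries of cow 567 were the lowest in each group.

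In the pentose phosphate pathway the 3 genes did not move together. TALDO1, transaldolase, had 217, 389 and 226 CPM with WY-14643, 205, 122 and 124 with GW-501516 and 118, 139 and 126 with rosiglitazone, against 312, 240.0 and 203 in control. With rosiglitazone the groups did not overlap and the log2 fold change was −0.98 ± 0.36 (adjusted p = 0.511). With the replicate block TALDO1 fell by 0.95 ± 0.33 (0.160), a call that held in 5 of 12 fits. It was lost without a control or rosiglitazone library of any of the 3 cows or WY-14643 581, with values of −1.09 to −0.77.

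TKT, transketolase, had 196, 75.2 and 415 CPM with WY-14643, 156, 103 and 124 with GW-501516 and 161, 156 and 220.1 with rosiglitazone, against 80.8, 73.4 and 131 in control. The rosiglitazone libraries all lay above control, and the WY-14643 libraries of cows 581 and 567, both marked, did as well. The log2 fold change was 1.27 ± 0.43 with WY-14643 (adjusted p = 0.355) and 0.91 ± 0.42 with rosiglitazone (0.709), and TKT rose with the block by 1.11 ± 0.35 (0.0988) and 0.95 ± 0.34 (0.191). The first call held in 6 of 12 fits, being lost without a control, WY-14643 or rosiglitazone library of cow 581 or 567 (0.58 to 1.11), and turned to −0.29 without the marked libraries. The second held in 4 of 12 and was lost without any control or rosiglitazone library or WY-14643 of cow 581 or 567 (0.71 to 1.09). PGD, phosphogluconate dehydrogenase, which yields NADPH, had 101, 162 and 131 CPM with WY-14643, 66.0, 96.4 and 53.5 with GW-501516 and 48.1, 73.7 and 76.0 with rosiglitazone, against 91.1, 136 and 84.4 in control. Its rosiglitazone libraries lay below control without overlap, at −0.65 ± 0.40 (0.744).

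Among the glutathione transferases, which couple glutathione to electrophiles, GSTP1 fell and MGST1 rose, each only with the replicate block. GSTP1 had 62.1, 152 and 77.0 CPM with WY-14643, 72.5, 198 and 73.9 with GW-501516 and 31.1, 87.0 and 48.8 with rosiglitazone, against 89.5, 151 and 90.5 in control. Every rosiglitazone library lay below the controls without overlap, and cow 576 was highest in each group. The rosiglitazone value was −0.98 ± 0.45 (adjusted p = 0.707), and with the block GSTP1 fell by 1.07 ± 0.38 (0.178). That call held in 5 of 12 fits and was lost without control 581 or 567, any rosiglitazone library, or WY-14643 581 or 567, with values of −1.20 to −0.87.

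MGST1, a membrane-bound transferase, had 51.8, 8.58 and 41.6 CPM with WY-14643, 49.7, 30.7 and 12.8 with GW-501516 and 18.4, 18.7 and 11.9 with rosiglitazone, against 7.56, 17.02 and 4.89 in control. Its 3 marked libraries were the 3 highest, and WY-14643 of cow 576 was under its own control. The WY-14643 value was 1.79 ± 0.67 (adjusted p = 0.464), MGST1 rose with the block by 1.86 ± 0.66 (0.189), and the value turned to −0.15 without the marked libraries. The block call held in 4 of 12 fits and was lost without control 581 or 567, WY-14643 581 or 567, any rosiglitazone library or GW-501516 567, with values of 1.08 to 1.82. With GW-501516 MGST1 was at 1.66 ± 0.67 (0.541).

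MGST2 had 69.2, 69.0 and 76.2 CPM with WY-14643, 35.5, 38.6 and 30.03 with GW-501516 and 61.1, 63.4 and 45.7 with rosiglitazone, against 18.3, 53.0 and 26.4 in control. Its WY-14643 libraries lay above all controls, at 1.13 ± 0.45 (adjusted p = 0.534). MGST3 ranged from 25.8 to 130.0 CPM, GSTM1 from 13.2 to 83.0 CPM and GSTM3 from 7.96 to 106 CPM over the 12 libraries, each highest with WY-14643 in cow 567, a marked library. GSTM3 had 50.8, 14.3 and 106 CPM with WY-14643 and 24.8, 10.9 and 13.4 with GW-501516. It had 40.3, 69.1 and 63.8 CPM with rosiglitazone, against 7.96, 26.8 and 83.2 in control. For GSTM3 rosiglitazone exceeded GW-501516 by 1.79 with the block (0.0634) and GW-501516 lay below WY-14643 by the same fit (−1.46, 0.195). Counts of GSTM1 are uncertain, since near-identical copies could share its reads.

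Of the ferritin genes, FTH1 lay above control with WY-14643, and both FTH1 and FTL lay below it with rosiglitazone. FTH1 had 4796, 5638 and 3851 CPM with WY-14643, 4763, 614 and 2201 with GW-501516 and 1568, 1454 and 2297 with rosiglitazone, against 2416, 3343 and 2769 in control. The WY-14643 libraries lay above control without overlap and the rosiglitazone libraries below, while GW-501516 spanned both. Against control the log2 fold change was 0.74 ± 0.39 with WY-14643 (adjusted p = 0.644) and −0.68 ± 0.39 with rosiglitazone (0.744). With the block FTH1 rose by 0.73 ± 0.25 (0.150) and fell by 0.71 ± 0.25 (0.160). Each call held in 5 of 12 fits. The first was lost without control 581 or 567, any WY-14643 library or rosiglitazone 581 or 567 (0.29 to 0.93). The second was lost without any control, rosiglitazone 581 or 576 or WY-14643 581 or 567 (−0.94 to −0.32). Leaving out a whole cow lost the second each time (−0.98 to −0.39), and the first for cow 581 or 567 (0.65 and 0.84).

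Between rosiglitazone and WY-14643, both at 100 µM, the FTH1 difference of −1.45 was called with the block (adjusted p = 9.81e-06) in all 12 fits that left out 1 library. FTL had 2449, 3062 and 2382 CPM with WY-14643, 2033, 1053 and 1322 with GW-501516 and 1621, 1794 and 1629 with rosiglitazone, against 2695, 2313 and 1903 in control. Its rosiglitazone libraries lay below control without overlap, at −0.45 ± 0.30 (0.744). With WY-14643 the groups overlapped (0.19 ± 0.30, 0.8999), and with GW-501516 FTL was at −0.65 ± 0.30 (0.623). FTL overlaps a neighbouring gene in the RefSeq annotation and the strand setting of the counting is not given, so its counts are uncertain, as are those of TXNRD1 and PRDX6.

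**Figure D4:**
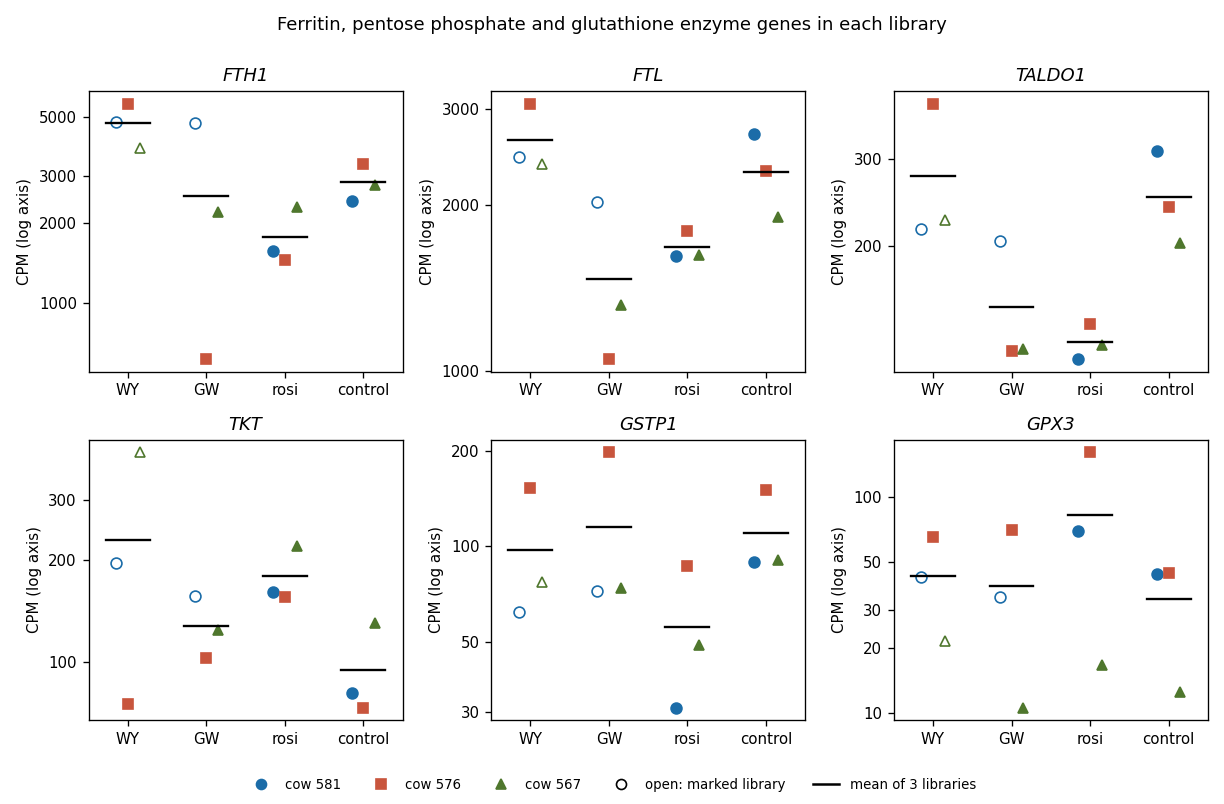
CPM on log axes of FTH1, FTL, TALDO1, TKT, GSTP1 and GPX3 in each of 12 libraries, with WY-14643, GW-501516, rosiglitazone and control from left to right. Symbols give the cow, open symbols the marked libraries and black bars the mean of 3. In TALDO1 the rosiglitazone libraries lie between 118 and 139 CPM, below the controls at 203 to 312 CPM.

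Directly between agonists, SOD2 was the gene that differed. It was lower with rosiglitazone than with WY-14643, at −2.51 ± 0.55 on the log2 scale (adjusted p = 0.0494), the 1 call of 35, where 0.338% of all genes were called. GW-501516 lay below WY-14643 at −2.20 ± 0.54 (0.163), again the 1 call of 35 (0.156% of all genes). Both rest on WY-14643 576, since without it the values were −1.17 (0.592) and −0.87 (0.824). The second was also lost without control 581 (−2.21), control 567 (−2.20), GW-501516 576 (−1.79) or GW-501516 567 (−2.07). Rosiglitazone against GW-501516 gave 0 calls with edgeR (0.0757% of all genes), with 5 of the 35 at an unadjusted p under 0.05 (3.97%) and 1 call by DESeq2, GCLC (0.414%).

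With the replicate block these comparisons called 6 of 35 (rosiglitazone against WY-14643, 1.27% of all genes), 2 (rosiglitazone against GW-501516, 0.570%) and 5 (GW-501516 against WY-14643, 1.16%). All 6 of the first were lower with rosiglitazone, namely SOD1, FTH1, TALDO1, PRDX1 (−1.10, adjusted p = 0.0429), TXN (−1.12, 0.0485) and SOD2. Without the marked libraries the TXN difference turned to 0.063. In the last comparison HMOX1 was higher with GW-501516 (1.11, 0.0756), and −0.11 without the marked libraries, while FTH1, FTL, SOD2 and GSTM3 were lower. GW-501516 was used at 50 µM and the other compounds at 100 µM.

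Most of these block calls between agonists were lost when 1 library or another was left out. For rosiglitazone against WY-14643, FTH1 was called in all 12 fits that left out 1 library, while PRDX1 was lost without rosiglitazone 581 (−0.79) and SOD2 without WY-14643 576 (−1.09). TXN was lost without control 567, rosiglitazone 581 or WY-14643 581 or 567 (−1.11 to −0.73), and SOD1 without control 581 or 567, WY-14643 581 or 567 or any rosiglitazone library (−1.31 to −0.91). TALDO1 was lost without control 567, WY-14643 576 or 567 or any rosiglitazone library (−1.19 to −0.76). For rosiglitazone against GW-501516, GCLC was lost without rosiglitazone 576 (1.03) and GSTM3 without WY-14643 581, rosiglitazone 576, control 567 or GW-501516 567 (1.15 to 1.77). For GW-501516 against WY-14643, SOD2 and FTH1 were lost without WY-14643 576 (−0.91 and −0.74) or GW-501516 576 (−1.10 and −0.42), and HMOX1 without WY-14643 581 or 567, control 567 or GW-501516 567 (0.49 to 1.06). There FTL was called in 4 of 12 fits and GSTM3 in 3.

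The levels of several of the 35 genes went with the mark in the labels. In a fit with treatment, cow and mark, 5 of 35 genes were called between marked and unmarked libraries, where 2.36% of all genes were called. TXN was higher by 1.77 ± 0.33 (adjusted p = 3.64e-05), GSTM3 by 2.47 ± 0.60 (0.00747), SOD1 by 1.41 ± 0.42 (0.0619) and TKT by 1.27 ± 0.40 (0.0930), and HMOX1 was lower, at −1.94 ± 0.32 (1.06e-06). In 7 genes (GCLM, TXN, PRDX3, PRDX5, GPX4, SOD1 and MGST1) all 3 marked libraries exceeded all 9 unmarked ones, against 4.49% of all genes, and in 0 genes they lay below (2.21%). TXN, for example, had 877, 759 and 709 CPM in the marked libraries and 70.0 to 313 CPM in the unmarked ones.

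Of the 3 marked libraries, 2 were of WY-14643, 1 of GW-501516 and none of rosiglitazone or control, so agonist and mark cannot be told apart for most of the WY-14643 effect. With the mark as a term beside the block, WY-14643 called SOD2 alone (0.177% of all genes). Of the WY-14643 libraries only that of cow 576 is unmarked, and its SOD2 was at 686 CPM, against 152 and 94.3 in the marked ones. Without that library the block fit, with no term for the mark, lost the SOD2 call (0.86, adjusted p = 0.451). With block and mark, GW-501516 called FTL and GSTM3 (1.00%), and rosiglitazone 9 genes, its 8 and PRDX2 (3.47%). With the marked libraries left out and the block kept, WY-14643 called FTH1 and SOD2 (0.264%). The WY-14643 group held 1 library there, that of cow 576, so these calls rest on a single library and are not counted as results. Neutrophil markers summed to 2131 CPM and stellate and fibroblast markers to 2772 CPM in that library, and their part was not tested. In the same fit GW-501516 called 7 (1.71%), among them HMOX2 (1.07), FTH1 (−1.36) and GPX1 (−1.89). The GW-501516 group held 2 libraries there, those of cows 576 and 567. FTH1 was at 614 and 2201 CPM in them, and GPX1 at 15.2 and 33.2 CPM. RN18S1 took 63.8% of counts in that of cow 576. Rosiglitazone called the same 8 as with the block alone (2.77%).

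**Figure D5:**
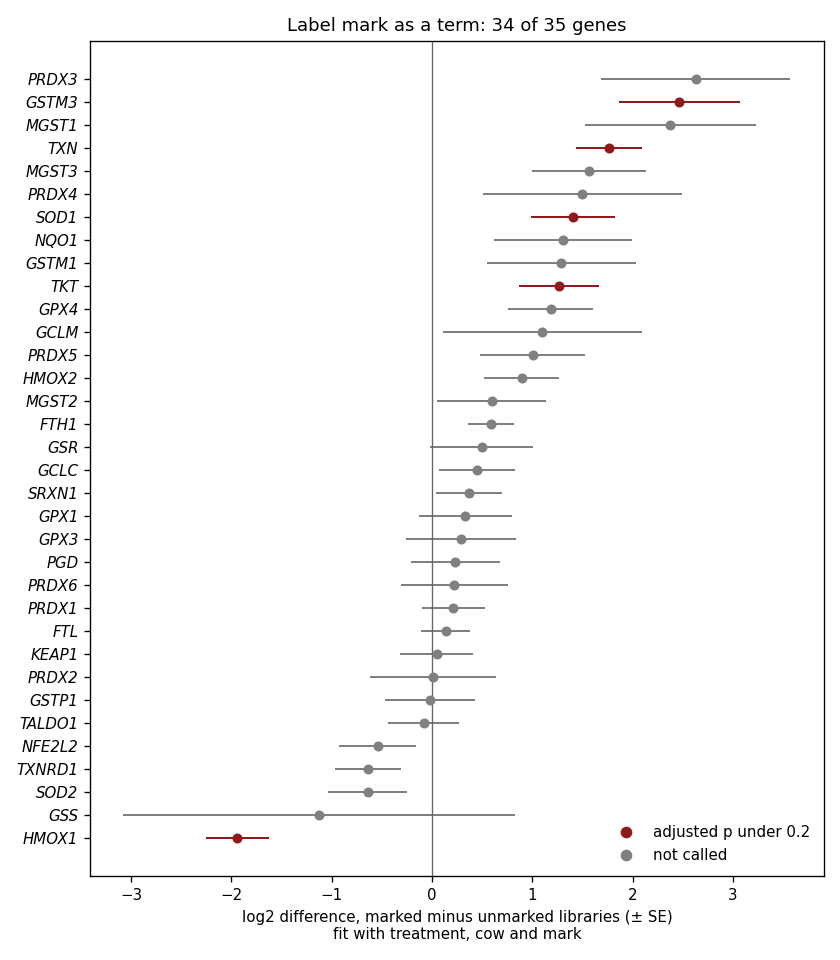
Log2 difference between the 3 marked and 9 unmarked libraries with its SE, from the fit with treatment, cow and mark, for 34 of the 35 genes, SOD3 being left out for its SE of 3.48. Red points are those called, 4 of them above 0 and HMOX1 below at −1.94.

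The cows differed in 8 of the 35 genes in the block fit (4.67% of all genes), namely TXN, NQO1, GPX3, SOD1, SOD2, TKT, GSTM3 and GSTP1. GPX3 was lowest in cow 567, at 10.6 to 21.4 CPM over its 4 libraries, against 34.4 to 69.5 CPM in cow 581 and 44.4 to 161 CPM in cow 576 (adjusted p = 1.1e-05). GSTP1 was highest in cow 576, at 87.0 to 198 CPM, against 31.1 to 89.5 CPM in cow 581 and 48.8 to 90.5 CPM in cow 567 (0.0114). The GPX3 range of cow 567 did not overlap those of the other cows, whereas the GSTP1 range of cow 576 overlapped both others. The marked libraries belong to cows 581 and 567, and TXN, SOD1, TKT and GSTM3 were called for the mark as well as for the cow.

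The wider pathway was covered by 120 further genes in 7 lists. Among 18 tested partners and other targets of NRF2 none was called by treatment alone, and with the block NQO2, a second quinone reductase, was higher with WY-14643 (1.41, adjusted p = 0.127) and rosiglitazone (1.48, 0.0933). The list medians were 0.25, 0.18 and −0.02 with WY-14643, GW-501516 and rosiglitazone, against 0.12, 0.00 and 0.08 over all genes. Of 31 further glutathione, glutaredoxin and thioredoxin genes none was called by treatment alone, and with the block GSTO1 (1.42, 0.183) was higher and GSTA2 (−1.44, 0.190) lower with WY-14643 and GLRX2 (1.42, 0.167) higher with GW-501516. Among 10 NADPH-supplying genes RPIA, an isomerase of the pentose phosphate pathway, was higher with WY-14643 (3.00 ± 0.85, 0.199). Of 12 tested genes of cysteine supply the block called SLC3A2, a subunit of amino acid transporters, with GW-501516 (1.37, 0.0361).

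No gene of 12 for selenium handling was called, and SELENOF (1.38, adjusted p = 0.619) and SELENOT (0.86, 0.644), both with WY-14643, had the smallest p. Of 17 genes for iron and heme handling, TF, transferrin, was called with rosiglitazone by the block (0.81, 0.160).

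The last list held metallothioneins, which bind zinc and copper, with catalase, paraoxonases and methionine sulfoxide reductases. Of its 13 genes MT1E, MT2A and PON1 were called higher with WY-14643 (1.96, 2.15 and 2.11, adjusted p 0.135 to 0.167), where 0.535% of all genes were called. The other metallothioneins, MT1A (2.20 ± 0.68, 0.282) and MT3 (0.53 ± 1.83, 0.982), were not. MT1A had 5109, 249 and 1262 CPM with WY-14643, 4723, 717 and 530.2 with GW-501516 and 2296, 770.0 and 419 with rosiglitazone, against 966, 169.7 and 311 in control. Every agonist library exceeded the control of the same cow, and cow 581, which held the highest agonist values, also held the highest control value. With the block MT1A, MT1E, MT2A and PON1, a secreted esterase, were called higher with each agonist while MT3 was called with none. The block called 2.68, 2.03 and 2.86% of all genes with WY-14643, GW-501516 and rosiglitazone. In the same order MT1A rose by 1.86 (1.76e-08), 1.74 (3.94e-07) and 1.38 (0.00017). Without the marked libraries, with the block, WY-14643 held 1 library, and its values were 1.57 for MT2A and 0.01 for MT1A. GW-501516 kept MT1A and MT1E there (1.71% of all genes), and rosiglitazone kept all 4 (2.77%).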

How the data were processed

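Counts of reads per gene in 16 libraries were analysed, 12 of them (cows 581, 576 and 567) in the tests. The deposited counts are whole numbers with no normalization. Per the labels and the study's methods, the authors used QuantSeq 3′ libraries, Trimmomatic 0.39 for trimming and STAR 2.7.1 for mapping against ARS-UCD1.2, and the submitters' processing notes also list SAMtools 1.0, StringTie 2.0, MultiQC 1.8 and DESeq2 1.30.1. Column headers point to the per-gene read counts of STAR, with NCBI symbols, whereas the methods give Ensembl annotation and StringTie. No source used here gives the strand setting. The table ends with 4 tallies of reads outside genes, which were excluded from depth and testing. Over the tested libraries, unmapped reads made up 3.69 to 17.1% of all, reads at several places 4.93 to 6.75%, reads outside genes 29.1 to 54.1% and ambiguous reads 0.380 to 1.40%.

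Genes that exceeded 4 counts in 1 or more of the 12 libraries were scaled by TMM and tested across all 19824 genes with edgeR 4.0.16 (R 4.3.3, limma 3.58.1) by glmQLFit with legacy=TRUE and glmQLFTest, with the 4 groups in 1 fit, treatment as the only term and Benjamini-Hochberg adjustment at 0.2. SEs are the log2 fold change over the root of F. Figures were drawn with matplotlib 3.10.9 and pandas 2.3.3. The code was tested on simulated data. The 3 libraries of a group came from 3 animals, and p-values measure the spread between these libraries. By-cow ratios used log2 of CPM + 1.

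The replicate number of the labels is the animal, so the libraries are paired. Correlations of same-cow deviations ran from −0.0289 to 0.282 (median 0.107, 18 pairs), against −0.284 to 0.116 (36 pairs) for other cows. Alternatives were the replicate block, DESeq2 1.42.0, RLE size factors, no filter, filterByExpr, legacy=FALSE, all 16 libraries, leaving out each library and, chosen after seeing the data, the 3 libraries marked in the labels, left out or as a term, and the block with RLE, filterByExpr or legacy=FALSE. Genes and lists were chosen with earlier results of these data known. Values in every sample are given for genes called in either fit, for the 3 smallest p per agonist and for the 3 highest in control. They are also given for NFE2L2, KEAP1, NQO1, HMOX1, GCLC, GCLM, TXNRD1 and SRXN1. Other genes were added where groups did not overlap, some with only part of their values or a range. For the 7 pathway lists, genes called or else the 2 with the smallest p are named. Names matched RefSeq (ARS-UCD2.0) for 34 of 35 genes, used only for neighbours, and no coordinates are given. Marker lists of 9 cell types were summed in CPM.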

Additional observations from a re-analysis of the deposited data

Results flagged for a closer look

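SOD2 differed between agonists by a test of the difference itself. The difference of rosiglitazone from WY-14643 was −2.51 on the log2 scale (adjusted p = 0.0494) and that of GW-501516 from WY-14643 was −2.20 (0.163), in edgeR's treatment-only fit. The single values were 65.4, 61.1 and 37.2 CPM with rosiglitazone and 128, 21.1 and 52.9 with GW-501516, against 152, 686 and 94.3 with WY-14643, in cows 581, 576 and 567. Without WY-14643 of cow 576, where 5 neutrophil markers summed to 2131 CPM and 7 stellate and fibroblast markers to 2772 CPM, the differences were −1.17 and −0.87 and were not called. The part of these cells was not tested.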

How the results depend on the processing

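Counts of the 35 genes called are given here for WY-14643, GW-501516, rosiglitazone and the mean of the agonists against control, then rosiglitazone against WY-14643, rosiglitazone against GW-501516 and GW-501516 against WY-14643, being 2, 0, 2, 1, 1, 0 and 1 as reported. With the replicate block, for libraries paired by cow, they were 7, 2, 8, 4, 6, 2 and 5, with RLE and the block 4, 2, 7, 3, 6, 2 and 4, and with DESeq2 and the block 4, 2, 7, 3, 5, 2 and 2. DESeq2 alone gave 4, 2, 3 and 1 for rosiglitazone, the mean and the first 2 pairs, and RLE alone 2 for the mean. With no filter on low counts they were 4, 2, 3, 4, 4, 2 and 2, with filterByExpr 0 throughout, and with filterByExpr and the block 0, 0, 2, 1, 0, 0 and 0. With legacy=FALSE WY-14643 gave 1 and both pairs with WY-14643 0, and with legacy=FALSE and the block 3, 0, 3, 3, 3, 1 and 1. All 16 libraries gave 0 throughout, and with the block 0 for GW-501516 against WY-14643. Leaving out the 3 marked libraries left 1 WY-14643 library, so comparisons with WY-14643 and the mean are not counted. The counts were then 6 for GW-501516, 7 for rosiglitazone and 3 for rosiglitazone against GW-501516, with the block 7, 8 and 3. With the mark as a term the counts in the first order were 2, 1, 7, 2, 4, 4 and 3, and with the block 1, 2, 9, 2, 5, 3 and 4. The share of all genes called also changed with the setting. For WY-14643 it was 0.535% as reported, 2.68% with the block and 0.177% with block and mark. These counts are therefore not compared between settings. Leaving out single libraries gave 0 to 7, 0 to 2, 0 to 5, 0 to 7, 1 to 7, 0 to 2 and 0 to 8. The 8 genes called between cows (4.67% of all genes) became 2 with filterByExpr (1.04%), 4 with legacy=FALSE (4.92%), 29 with all 16 libraries, which add cow 574 (57.6%), 4 without the marked libraries (1.13%) and 4 to 11 without single libraries.

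Signs turned in these cases, and the cause was not tested beyond the libraries left out. Without the marked libraries, and then with the block as well, WY-14643 against control had −0.49 and −0.33 for HMOX2, −0.29 and −0.049 for TKT and −0.15 and −0.60 for MGST1, and GW-501516 against WY-14643 had −0.11 and −0.10 for HMOX1. Rosiglitazone against WY-14643 had 0.063 for TXN without the marked libraries, 0.26 with the mark as a term and 0.011 with the block too, and 0.084 for SOD1 with the mark as a term. RLE scaling put the median of all genes with WY-14643 at 0.00, against 0.12 with TMM. Depth limited GSS and SOD3, at 0 counts in some libraries.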

Other observations

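The 4 libraries of cow 574, left out of all values above, held 772012 to 970406 counts in genes, of which the 35 genes took 1680 to 2824. Scaled with all 16 libraries, HMOX1 was at 56.2 CPM with WY-14643, 107 with GW-501516 and 120.5 with rosiglitazone, against 166 in control. These rest on 70, 140 and 122 counts, against 221. Each agonist library of this cow thus lay below its control for HMOX1, as in the 3 other cows. There was 1 library per treatment and no test. PRDX1 was also below control with rosiglitazone, at 35.6 against 48.1 CPM. Other genes turned round in this cow. KEAP1 had 38.5, 41.2 and 23.7 CPM with WY-14643, GW-501516 and rosiglitazone, against 73.6 in control. NFE2L2 had 48.9, 40.5 and 21.7 CPM in the same order, against 16.5. FTH1 was at 297 CPM with rosiglitazone, against 94.7 in control. SOD2 had 10, 19 and 13 counts, against 10 in control.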
